A study of Mus musculus with 18 samples.

Results

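Kruppel-like factors are transcription factors that bind GC-rich DNA, such as the CACCC box and the GC box, through zinc fingers at their C-terminal end. In mouse embryonic stem (ES) cells Klf2, Klf4 and Klf5 belong to the network that keeps the cells in the naive, self-renewing state, and they can partly replace each other there. Klf4 and Klf5 act downstream of leukaemia inhibitory factor (LIF) and STAT3, and Esrrb, an orphan nuclear receptor, is another member of the same network. The data below describe 10 family members, Klf2, Klf3, Klf4, Klf5, Klf6, Klf7, Klf9, Klf10, Klf13 and Klf16, taken by name. These members were chosen with earlier results of these data known. The array lists them as KLF2, KLF3, KLF4, KLF5, KLF6, KLF7, KLF9, KLF10, KLF13 and KLF16 among 34325 target names, and every probe with one of these names was taken, 20 of 46643. The naive-state factors Klf2, Klf4 and Klf5 are set against the other 7.

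E14 mouse ES cells were grown on gelatin with serum and LIF and were transfected with a plasmid that expresses a short hairpin RNA (shRNA) against Esrrb, or against GFP as the control. Total RNA was taken at day 2, day 4 and day 6 and hybridised to Illumina bead arrays, 1 array per sample. The groups were Esrrb shRNA at day 2, GFP shRNA at day 2, Esrrb shRNA at day 4, GFP shRNA at day 4, Esrrb shRNA at day 6 and GFP shRNA at day 6, with 3 arrays called biological replicates in each. Both arms were transfected with an shRNA plasmid by lipofection, and the labels name 1 shRNA per arm, so effects of that hairpin other than the loss of Esrrb cannot be told apart from it. A selection of transfected cells is not given in the labels used here. The values are means over whole cultures, in which fewer cells of a type and less RNA per cell cannot be told apart.

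The arrays had median raw intensities of 60.4 to 76.9, and 37.7% to 42.6% of probes were detected. The replicate number is also the BeadChip, and a group sat at the same place on all 3 of them, so place and group cannot be told apart. Esrrb, the targeted gene, was at 21.3% of the GFP shRNA level at day 2, 15.2% at day 4 and 27.4% at day 6. A second, dim Esrrb probe lay at 5.33 to 5.69 in Esrrb shRNA cells and 5.32 to 5.91 in GFP shRNA cells (normalized log2 intensity) and showed no such fall. All 6 ES cell markers tested were detected on every array, with a summed level (linear scale, after normalization) of 12721 to 15744 in Esrrb shRNA cells and 16532 to 18510 in GFP shRNA cells over the 3 days. Of 6 fibroblast markers Col1a1, Col1a2, Col3a1 and Lum were detected on no array, and 1, Dcn, passed the filter and rose at day 2 by 0.36 (SE 0.11, adjusted p = 0.0307). The summed fibroblast level was 43 to 59 in Esrrb shRNA cells and 46 to 51 in GFP shRNA cells at day 2. Of 6 trophectoderm markers, 5 were detected on all arrays and Hand1 on none. Their summed level was 1018 to 1049 in Esrrb shRNA cells and 432 to 488 in GFP shRNA cells at day 2, and 9560 to 9853 against 1511 to 1574 at day 6. Of 3 neural markers, Sox1 was detected on no array and 2 were tested, of which Nes and Pax6 rose at days 4 and 6, with a sum of 102 to 127 in Esrrb shRNA cells and 25 to 39 in GFP shRNA cells at day 6. Of 4 primitive endoderm markers 3 were tested and 2 fell at day 2 and at day 6, with a sum of 249.2 to 265.1 in Esrrb shRNA cells and 420.5 to 475.1 in GFP shRNA cells at day 6. The part of these marker changes in the results on the Kruppel-like factors was not tested.

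The proximal promoters of 4 members are shown because Klf4 and Klf2 stand for the naive-state factors and Klf6 and Klf7 for the members that were higher after knockdown. Each is the RefSeq sequence from 250 bases before to 50 bases after the start site, 5′ to 3′ on the gene's strand, in build GRCm38.p6. The Klf4 promoter is at chr4:55532426-55532725 (minus strand), that of Klf2 at chr8:72318812-72319111 (plus strand), that of Klf6 at chr13:5861239-5861538 (plus strand) and that of Klf7 at chr1:64121340-64121639 (minus strand). Capitals mark the GC box GGGCGG and the CACCC box, each on either strand, so that a CACCC box on the minus strand reads GGGTG and a GC box there reads CCGCCC.
Klf4 promoter: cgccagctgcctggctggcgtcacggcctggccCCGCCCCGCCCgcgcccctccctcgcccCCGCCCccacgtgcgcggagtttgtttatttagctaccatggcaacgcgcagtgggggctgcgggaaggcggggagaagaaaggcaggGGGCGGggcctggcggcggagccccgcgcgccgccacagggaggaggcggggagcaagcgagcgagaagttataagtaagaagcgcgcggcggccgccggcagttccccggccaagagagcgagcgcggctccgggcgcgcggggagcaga
Klf2 promoter: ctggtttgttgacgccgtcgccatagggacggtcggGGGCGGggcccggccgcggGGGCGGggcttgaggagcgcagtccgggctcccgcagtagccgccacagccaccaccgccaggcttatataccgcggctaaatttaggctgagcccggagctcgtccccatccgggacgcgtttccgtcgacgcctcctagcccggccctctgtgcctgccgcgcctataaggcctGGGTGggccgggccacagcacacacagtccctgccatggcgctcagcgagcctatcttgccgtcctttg
Klf6 promoter: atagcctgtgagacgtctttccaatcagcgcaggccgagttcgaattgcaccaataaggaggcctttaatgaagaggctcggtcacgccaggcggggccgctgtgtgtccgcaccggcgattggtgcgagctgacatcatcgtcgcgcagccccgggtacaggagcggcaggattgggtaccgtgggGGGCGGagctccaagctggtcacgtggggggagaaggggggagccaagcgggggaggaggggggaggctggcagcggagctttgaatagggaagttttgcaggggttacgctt
Klf7 promoter: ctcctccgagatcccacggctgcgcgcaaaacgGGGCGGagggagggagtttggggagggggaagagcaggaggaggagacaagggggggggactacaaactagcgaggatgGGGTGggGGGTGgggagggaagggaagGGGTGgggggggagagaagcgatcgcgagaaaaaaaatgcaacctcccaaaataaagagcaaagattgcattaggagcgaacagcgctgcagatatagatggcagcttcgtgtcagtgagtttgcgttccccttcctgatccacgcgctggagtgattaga

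The Klf4 promoter held 4 GC boxes and no CACCC box, and 2 of its GC boxes overlap by 1 base. The Klf2 promoter held 2 GC boxes and 1 CACCC box. The Klf7 promoter held 1 GC box and 3 CACCC boxes, while the Klf6 promoter held 1 GC box and no CACCC box. Over 32851 mouse promoters of the same length, 35.7% held a GC box and 57.5% a CACCC box. The Esrrb motif TCAAGGTCA was in none of the 7 member promoters that could be matched, and 0.423% of all promoters hold it. No promoter could be matched for Klf5, Klf10 and Klf16, so the naive-state factor Klf5 was not examined for motifs. The STAT motif TTCNNNGAA was in 1 of the 7, that of Klf9, and 8.30% of all promoters hold it. These letters are a description of a window of 300 bases, not of binding.

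Of the 20 probes, 18 passed the filter, which asked for detection on all 3 arrays of at least 1 group, and they covered 9 genes. The probe of Klf10, a gene induced by TGF-beta, and the third probe of Klf5 were detected on 0 of 18 arrays. By this rule Klf2, Klf13 and Klf16 were tested through 1 probe each, Klf5, Klf6 and Klf9 through 2, and Klf3, Klf4 and Klf7 through 3. The brightest probe of a gene, by its mean of 18 arrays, stood for it in the test and is called probe 1 here. A further probe of Klf13 and one of Klf10 are listed under other names and fall outside the rule, and that of Klf10 was detected on 0 of 18 arrays. Levels below are normalized log2 intensities, and each effect is the log2 fold change of Esrrb shRNA over GFP shRNA with its standard error (SE) from limma, 3 arrays per group. Adjusted p-values are Benjamini-Hochberg values over all 14531 genes tested, or over all 19458 probes where a probe other than probe 1 is described, and a gene is said to rise or fall where its adjusted p was under 0.05.

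At day 2 the knockdown lowered all 3 naive-state factors, Klf2 only just under the threshold (limma adjusted p = 0.0488), and raised Klf6 and Klf7. In all 5 of 9 members were called, against 12.2% of all genes tested, and Klf4 had the largest change of the members. Since the members were chosen with earlier results of these data known, such shares are a description and not a test. The 3 that fell compare with 5.55% of all genes called lower, and the 2 that rose with 6.61% called higher. At day 4, 4 of 9 members were called (23.4% of all genes): Klf4 and Klf5 fell (11.1% of all genes called lower) and Klf6 and Klf7 rose (12.3% called higher). At day 6, 6 of 9 were called (41% of all genes): Klf4, Klf5 and Klf9 fell (21.2% called lower) and Klf6, Klf7 and Klf16 rose (19.8% called higher). The share of members called thus lay closer to that of all genes at days 4 and 6 than at day 2. The median effect of the 9 members was -0.07, -0.04 and 0.04 on the log2 scale at days 2, 4 and 6, against 0.0022, -0.0022 and -0.0048 over all genes. The calls of Klf2 at day 2 and Klf9 at day 6 were lost under 9 and 7 of 14 alternative settings, described at the end.

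Klf4, one of the reprogramming factors, was the naive-state member with the largest fall on each day. At day 2 its log2 levels were 7.95, 8.18 and 8.02 in Esrrb shRNA cells, against 9.72, 9.64 and 9.77 in GFP shRNA cells. At day 4 they were 7.11, 7.06 and 6.85 in Esrrb shRNA cells, against 8.92, 9.05 and 9.21 in GFP shRNA cells. At day 6 they were 8.09, 8.40 and 8.06 in Esrrb shRNA cells, against 9.20, 9.33 and 9.33 in GFP shRNA cells. Every Esrrb shRNA array lay below every GFP shRNA array on each day, and by probe 1 day 4 held the lowest mean of both arms. In GFP shRNA cells the means at days 2, 4 and 6 were 8.48, 8.42 and 9.07 by probe 2. By probe 3 they were 7.22, 7.39 and 7.85, lowest at day 2. Klf4 fell by 1.66 (SE 0.11) at day 2, 3.16-fold, with a limma adjusted p of 2.68e-09. It fell by 2.05 (SE 0.11) at day 4, 4.15-fold, with an adjusted p of 2.36e-11. It fell by 1.10 (SE 0.11) at day 6, 2.15-fold, with an adjusted p of 8.38e-08. The fall was smaller at day 6 than at day 4 by 0.95 (SE 0.15, adjusted p = 3.24e-04), for a difference between days called in 14.3% of all genes, and smaller than at day 2 by 0.56 (SE 0.15, adjusted p = 0.0116), called in 25.2%.

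The other Klf4 probes fell as well, but they differed over time. Probe 2 of Klf4 lay at 7.22, 7.37 and 7.34 in Esrrb shRNA cells at day 6, against 9.12, 9.14 and 8.96 in GFP shRNA cells. Its effects were -1.14 (SE 0.13), -1.97 (SE 0.13) and -1.77 (SE 0.13) at days 2, 4 and 6, and those of probe 3 were -1.31, -1.90 and -1.64 (SE 0.14 each). All 3 probes were thus called lower on every day, with adjusted p-values of at most 4.96e-06. Against day 2, the fall at day 6 was larger by probe 2, with a difference between days of -0.63 (SE 0.19, adjusted p = 0.0180), and by probe 3 the difference was -0.34 (SE 0.20, adjusted p = 0.241). Averaged over the 3 probes it was -0.14 (adjusted p = 0.427), so the smaller fall at day 6 than at day 2 rests on probe 1 of Klf4. Against day 4, probes 2 and 3 differed at day 6 by 0.20 (SE 0.19, adjusted p = 0.540) and 0.26 (SE 0.20, adjusted p = 0.446), which did not pass.

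Klf5, which in mouse embryos is needed in both the inner cell mass and the trophectoderm, fell on each day. At day 2 its log2 levels were 11.60, 11.66 and 11.54 in Esrrb shRNA cells, against 12.13, 12.45 and 12.22 in GFP shRNA cells. At day 4 they were 11.41, 11.38 and 11.36 in Esrrb shRNA cells, against 12.21, 12.26 and 12.22 in GFP shRNA cells. At day 6 they were 11.79, 11.79 and 11.78 in Esrrb shRNA cells, against 12.43, 12.46 and 12.54 in GFP shRNA cells. The groups did not overlap on any day. Klf5 fell 1.59-fold at day 2 (-0.67, SE 0.09, adjusted p = 1.97e-05), 1.80-fold at day 4 (-0.85, SE 0.09, adjusted p = 3.44e-07) and 1.62-fold at day 6 (-0.69, SE 0.09, adjusted p = 2.35e-06). The differences between days did not pass, with adjusted p-values of 0.472 for day 4 against day 2, 0.464 for day 6 against day 4 and 0.914 for day 6 against day 2. The dimmer probe 2 of Klf5 fell at day 2 (-0.52, SE 0.11, adjusted p = 0.00399) and day 4 (-0.36, SE 0.11, adjusted p = 0.0253) and did not pass at day 6 (-0.09, SE 0.11, adjusted p = 0.560).

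Klf2, the naive-state factor placed downstream of Oct4 in mouse ES cells, moved little. At day 2 its log2 levels were 11.33, 10.99 and 11.29 in Esrrb shRNA cells, against 11.47, 11.67 and 11.50 in GFP shRNA cells. The groups did not overlap, and replicate 2 held both the lowest Esrrb shRNA level and the highest GFP shRNA level. Klf2 fell 1.27-fold (-0.34, SE 0.11, adjusted p = 0.0488), just under the threshold. The differences on the 3 BeadChips were -0.14, -0.68 and -0.21. Without replicate 2 of the Esrrb shRNA cells the effect was -0.24 (adjusted p = 0.229), and without replicate 2 of the GFP shRNA cells it was -0.28 (adjusted p = 0.156). The call was lost as well without Esrrb shRNA replicate 3 (adjusted p = 0.0606), GFP shRNA replicate 1 (0.0574) or GFP shRNA replicate 3 (0.0644), and with median centring (0.246). At day 4 the levels were 11.31, 11.15 and 11.53 in Esrrb shRNA cells, against 11.27, 11.42 and 11.41 in GFP shRNA cells. At day 6 they were 11.62, 11.58 and 11.40 in Esrrb shRNA cells, against 11.49, 11.45 and 11.40 in GFP shRNA cells. The groups overlapped on both days, and neither effect passed: -0.04 at day 4, with a 95% interval of -0.27 to 0.19, and 0.09 at day 6, with an interval of -0.15 to 0.32 (SE 0.11 each).

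**Figure D1:**
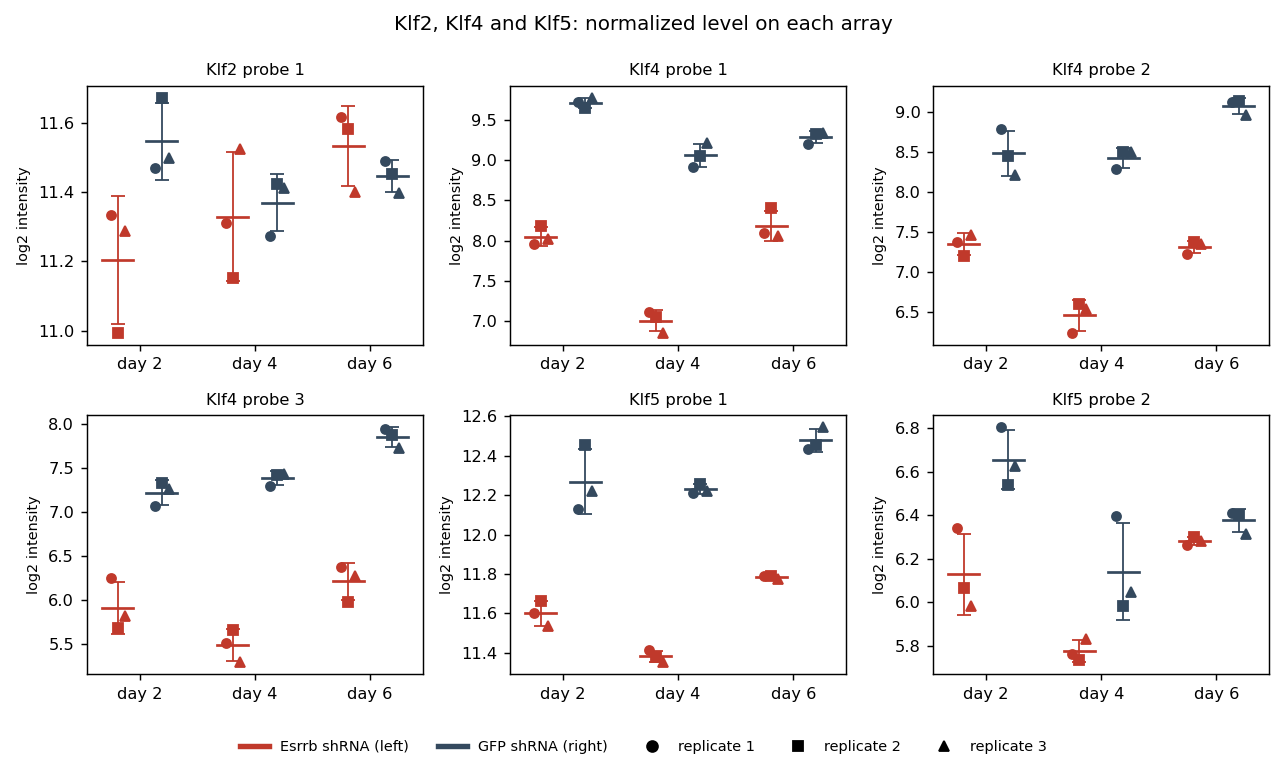
Normalized log2 intensity (vertical axis, 1 scale per panel) of the tested Klf2, Klf4 and Klf5 probes on each array by day (horizontal axis), with Esrrb shRNA in red on the left and GFP shRNA in dark blue on the right of each day. Points are arrays, shaped by replicate, and bars are means with SD (n = 3). All Klf4 and Klf5 probes shown were separated between the arms on every day, with Klf4 probe 1 at 6.85 to 7.11 in Esrrb shRNA cells and 8.92 to 9.21 in GFP shRNA cells at day 4.

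Klf6 and Klf7 moved opposite to Klf4 and Klf5. Klf6, a broadly expressed activator that rises in many tissues after injury, had log2 levels of 10.15, 10.07 and 10.23 in Esrrb shRNA cells at day 2, against 9.70, 9.48 and 9.80 in GFP shRNA cells. At day 4 they were 10.78, 10.72 and 10.67 in Esrrb shRNA cells, against 9.58, 9.64 and 9.85 in GFP shRNA cells. At day 6 they were 10.94, 11.34 and 11.34 in Esrrb shRNA cells, against 9.84, 9.95 and 10.04 in GFP shRNA cells. The gap between the means of the arms was wider on each later day and the groups never overlapped. Klf6 rose 1.40-fold at day 2 (0.49, SE 0.12, adjusted p = 0.00707), 2.05-fold at day 4 (1.03, SE 0.12, adjusted p = 1.02e-06) and 2.40-fold at day 6 (1.26, SE 0.12, adjusted p = 3.03e-08). The effect at day 6 exceeded that at day 2 by 0.77 (SE 0.16, adjusted p = 0.00165). The difference between day 4 and day 2 was 0.54 (SE 0.16, adjusted p = 0.0625, and 0.0341 with the BeadChip as a block), one that 4.82% of all genes passed. Between day 6 and day 4 the difference of 0.23 (SE 0.16, adjusted p = 0.399) did not pass.

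The second probe of Klf6 lay near background in GFP shRNA cells. It was detected on all Esrrb shRNA arrays, but on 1 of 3 GFP shRNA arrays at day 2 and on 0 of 3 at day 4. At day 2 its levels were 5.68, 5.95 and 5.48 in Esrrb shRNA cells, against 4.61, 4.97 and 5.58 in GFP shRNA cells. The groups overlapped, with differences on the 3 BeadChips of 1.07, 0.98 and -0.10, so the fitted effect of 0.65 (SE 0.19, adjusted p = 0.0338) rests on GFP shRNA levels that were mostly not above background. At day 4 it was at least 2.19-fold higher in Esrrb shRNA cells, counting GFP shRNA arrays at the lowest detected signal (fitted effect 1.30, SE 0.19, adjusted p = 4.09e-05). At day 6, where every array detected it, its levels were 7.08, 6.81 and 6.44 in Esrrb shRNA cells, against 5.44, 5.30 and 5.33 in GFP shRNA cells. That rise was 1.42 (SE 0.19, adjusted p = 6.73e-06), and the groups did not overlap.

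Klf7, known for its part in the development of neurons, rose on each day by all 3 of its probes. At day 2 probe 1 was at 8.88, 8.90 and 8.85 in Esrrb shRNA cells, against 8.36, 8.31 and 8.39 in GFP shRNA cells. At day 4 it was at 9.67, 9.49 and 9.65 in Esrrb shRNA cells, against 8.55, 8.59 and 8.59 in GFP shRNA cells. At day 6 it was at 9.68, 9.72 and 9.66 in Esrrb shRNA cells, against 8.97, 8.85 and 8.91 in GFP shRNA cells. The arms were apart on every day. Klf7 rose 1.44-fold at day 2 (0.53, SE 0.08, adjusted p = 1.17e-04), 2.04-fold at day 4 (1.03, SE 0.08, adjusted p = 6.21e-09) and 1.71-fold at day 6 (0.78, SE 0.08, adjusted p = 1.53e-07). The effect was larger at day 4 than at day 2 by 0.50 (SE 0.11, adjusted p = 0.0118). Probes 2 and 3 of Klf7 gave effects of 1.26 and 1.37 at day 4 and of 1.12 and 1.20 at day 6. By these probes the effect at day 6 also exceeded that at day 2, by 0.64 (SE 0.16, adjusted p = 0.00798) and 0.67 (SE 0.21, adjusted p = 0.0279), which probe 1 did not show (0.25, SE 0.12, adjusted p = 0.130).

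Klf16, a short family member known to repress promoters through the Sin3a corepressor, differed between the arms at day 6. At day 2 its log2 levels were 8.52, 8.68 and 8.71 in Esrrb shRNA cells, against 8.82, 8.81 and 8.51 in GFP shRNA cells. At day 4 they were 8.05, 8.39 and 8.30 in Esrrb shRNA cells, against 8.23, 8.38 and 8.23 in GFP shRNA cells. At day 6 they were 8.30, 8.55 and 8.60 in Esrrb shRNA cells, against 7.68, 7.92 and 7.86 in GFP shRNA cells. The arms overlapped at days 2 and 4, and at day 6 all Esrrb shRNA arrays lay above all GFP shRNA arrays. The effect was -0.07 (SE 0.12, adjusted p = 0.752) at day 2 and -0.03 (SE 0.12, adjusted p = 0.884) at day 4, and at day 6 Klf16 was 1.58-fold higher (0.66, SE 0.12, adjusted p = 9.93e-05). The effect at day 6 differed from that at day 2 by 0.74 (SE 0.16, adjusted p = 0.00234) and from that at day 4 by 0.70 (SE 0.16, adjusted p = 0.00643). In GFP shRNA cells Klf16 fell by 0.89 (SE 0.12, adjusted p = 2.27e-06) between day 2 and day 6, while in Esrrb shRNA cells its change of -0.16 (SE 0.12, adjusted p = 0.316) did not pass and had a 95% interval of -0.40 to 0.08. Between days 2 and 4 Klf16 fell in both arms, by 0.39 (SE 0.12, adjusted p = 0.0206) in Esrrb shRNA cells and 0.43 (SE 0.12, adjusted p = 0.0105) in GFP shRNA cells. Between days 4 and 6 it fell by 0.46 (SE 0.12, adjusted p = 0.00372) in GFP shRNA cells. Its change of 0.23 (SE 0.12, adjusted p = 0.161) in Esrrb shRNA cells over those days did not pass.

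**Figure D2:**
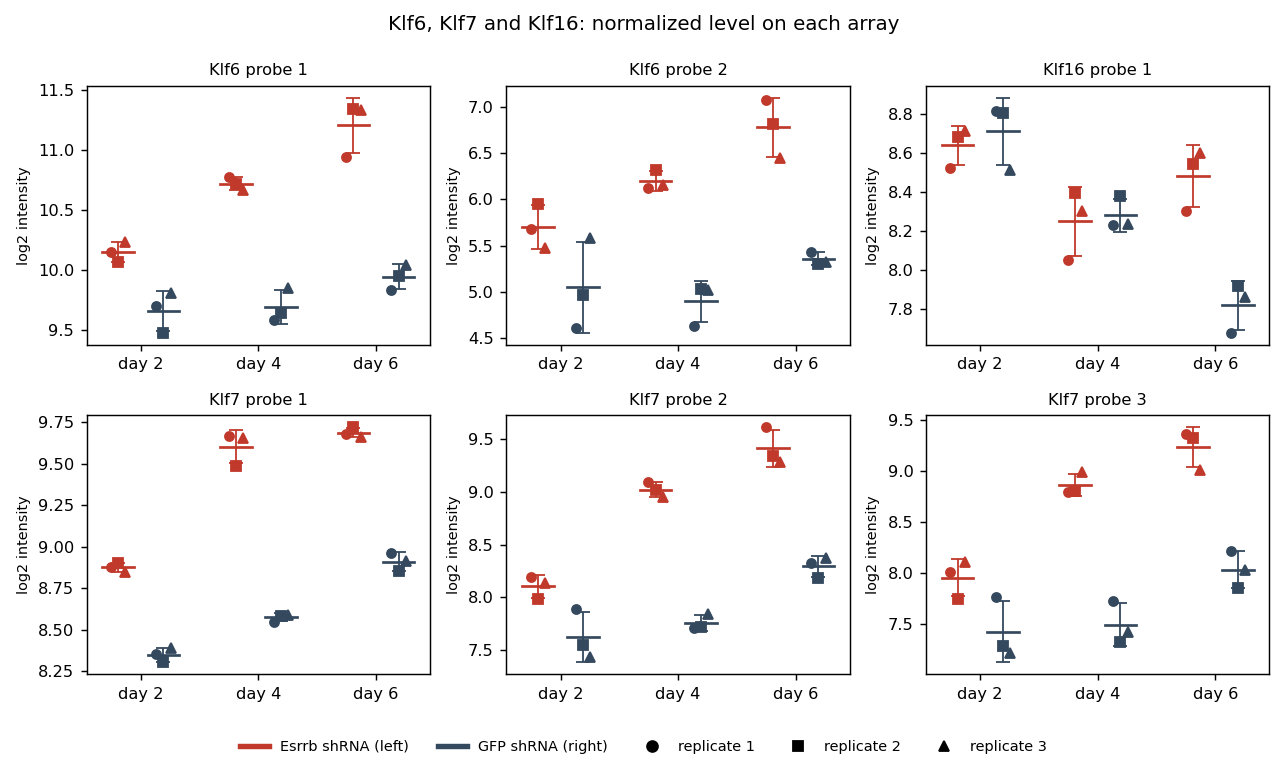
Normalized log2 intensity (vertical axis, 1 scale per panel) of the Klf6, Klf7 and Klf16 probes on each array by day (horizontal axis), with Esrrb shRNA in red on the left and GFP shRNA in dark blue on the right of each day. Points are arrays, shaped by replicate, and bars are means with SD (n = 3). Probe 1 of Klf6 and of Klf7 lay higher in Esrrb shRNA cells on every day, and Klf16 at day 6 alone, at 8.30 to 8.60 against 7.68 to 7.92.

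Klf3, Klf9 and Klf13 showed small or no differences. Klf3, a repressor that recruits CtBP, was at 10.75 to 11.11 in Esrrb shRNA cells and 10.71 to 11.03 in GFP shRNA cells over the 3 days by probe 1. Its effects of 0.06, 0.19 and 0.04 (SE 0.09 each) did not pass, with adjusted p-values of 0.755, 0.152 and 0.788. At day 6, 1 of its 3 probes, probe 2, rose: it was at 10.05, 9.99 and 9.96 in Esrrb shRNA cells, against 9.24, 9.12 and 9.24 in GFP shRNA cells (0.80, SE 0.20, adjusted p = 0.00387). The other Klf3 probes gave 0.04 and -0.09 that day, so the probes of Klf3 disagreed.

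Klf9, a factor induced by thyroid hormone and glucocorticoids, had effects of -0.10 (SE 0.08, adjusted p = 0.530) at day 2 and -0.14 (SE 0.08, adjusted p = 0.261) at day 4. At day 6 its levels were 12.42, 12.45 and 12.41 in Esrrb shRNA cells, against 12.69, 12.71 and 12.59 in GFP shRNA cells. The groups did not overlap and Klf9 fell 1.18-fold (-0.24, SE 0.08, adjusted p = 0.0307). The call was lost without Esrrb shRNA replicate 1 (adjusted p = 0.0582) or 3 (0.0736) and without GFP shRNA replicate 1 (0.0915) or 2 (0.101). Probe 2 of Klf9 pointed the other way at day 6, at 9.38, 9.37 and 9.05 in Esrrb shRNA cells, against 8.94, 8.99 and 8.76 in GFP shRNA cells (0.37, SE 0.15, adjusted p = 0.0546). Averaging both probes gave 0.07 (adjusted p = 0.635), so no direction holds for Klf9 over its probes.

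Klf13, which in mice acts in T lymphocytes and the heart, had effects of -0.05 (SE 0.12, adjusted p = 0.846), -0.25 (SE 0.12, adjusted p = 0.161) and -0.18 (SE 0.12, adjusted p = 0.289) at days 2, 4 and 6. At day 4 its level was 7.79 ± 0.09 in Esrrb shRNA cells, against 8.04 ± 0.04 in GFP shRNA cells (SD, n = 3 each). The arrays did not overlap, but the difference did not pass. The Klf13 probe listed under another name gave -0.09 (SE 0.13, adjusted p = 0.752), -0.0052 (SE 0.13, adjusted p = 0.985) and 0.21 (SE 0.13, adjusted p = 0.236). In all, the arms were apart for 6 of 9 members at day 2 (24.6% of all genes), 7 at day 4 (40.6%) and 6 at day 6 (52.7%), and 1, 3 and 0 of these members did not pass the test.

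**Figure D3:**
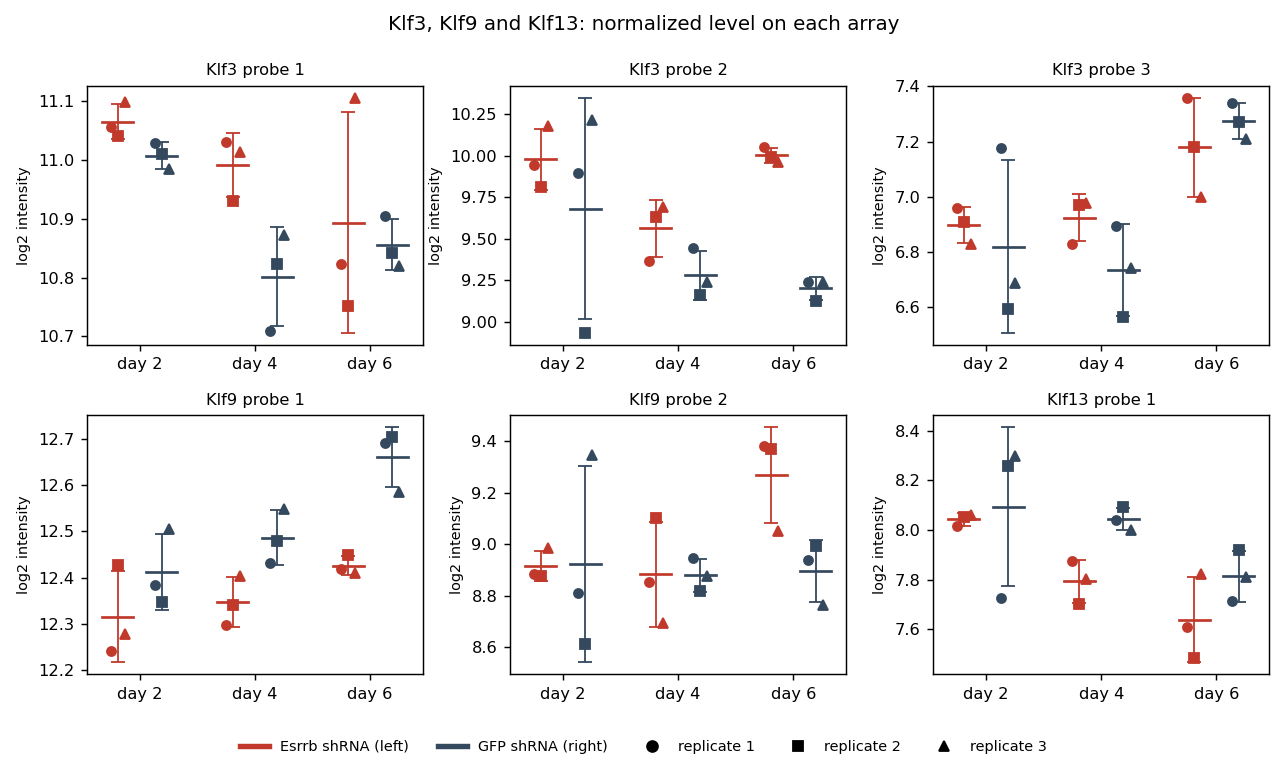
Normalized log2 intensity (vertical axis, 1 scale per panel) of the Klf3, Klf9 and Klf13 probes on each array by day (horizontal axis), with Esrrb shRNA in red on the left and GFP shRNA in dark blue on the right of each day. Points are arrays, shaped by replicate, and bars are means with SD (n = 3). The arms were apart for Klf3 probe 1 at days 2 and 4, Klf3 probe 2 at day 6, Klf13 at day 4, Klf9 probe 1 at days 4 and 6, where it lay lower in Esrrb shRNA cells, and Klf9 probe 2 at day 6, where it lay higher there.

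Set side by side, falls were counted mostly among the naive-state factors and rises only among the other members. Of Klf2, Klf4 and Klf5, 3 fell at day 2, 2 at day 4 and 2 at day 6, and 0 rose. Of the 6 others tested, 2 rose at day 2, 2 at day 4 and 3 at day 6, and 0, 0 and 1 fell. These counts include Klf2 at day 2 and Klf9 at day 6, whose calls were lost under 9 and 7 of 14 alternative settings. The probes of Klf9 also disagreed in direction. The effects of the naive-state factors ran between -1.66 and -0.34 at day 2, between -2.05 and -0.04 at day 4 and between -1.10 and 0.09 at day 6. Those of the others ran between -0.10 and 0.53, between -0.25 and 1.03, and between -0.24 and 1.26. The ranges did not overlap at day 2, and at days 4 and 6 they overlapped through Klf2. Within the naive-state set the spread was wide, with Klf2 near zero at days 4 and 6 and Klf4 the lowest on each day. Across the 18 arrays, which share the 6 groups, the levels of Klf4 and Klf5 had a Pearson r of 0.92 and those of Klf6 and Klf7 one of 0.94, as a description. Klf2 had an r of 0.37 with Klf4 and of 0.40 with Klf5.

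Counted by probe, 5 of the 18 tested rose and 5 fell at day 2 (10.7% of all probes were called), 5 rose and 5 fell at day 4 (21.6%), and 7 rose and 5 fell at day 6 (38.9%).

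**Figure D4:**
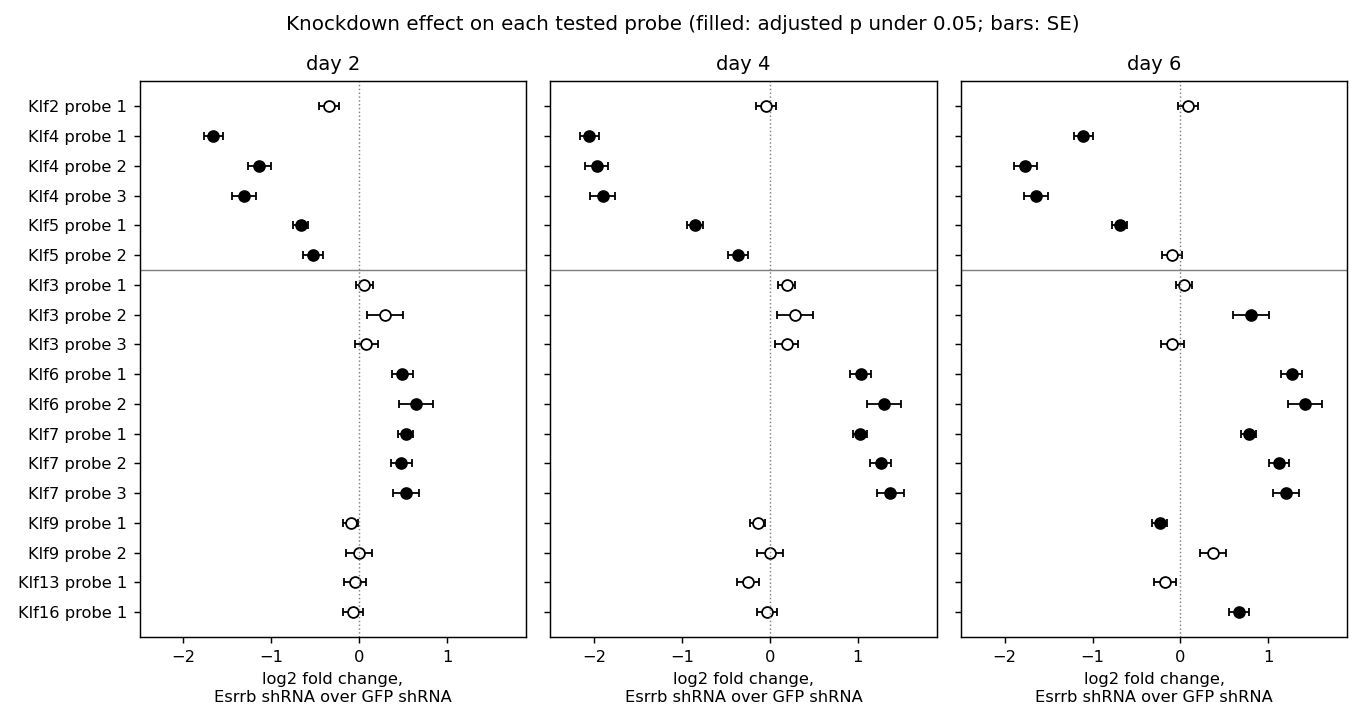
Log2 fold change of Esrrb shRNA over GFP shRNA (horizontal axis) for each of the 18 tested probes (vertical axis) at days 2, 4 and 6. Bars are SE, filled points had an adjusted p under 0.05 over all probes, and the horizontal line parts the probes of Klf2, Klf4 and Klf5, above, from those of the other members. Klf4 lay between -2.05 and -1.10, and the Klf6 and Klf7 probes between 0.48 and 1.42.

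Each arm was also compared with itself over time. In Esrrb shRNA cells 4 of 9 members changed between day 2 and day 6 (37.2% of all genes), and in GFP shRNA cells 5 did (49.1%). Klf6 rose by 1.06 (SE 0.12, adjusted p = 4.61e-07) in Esrrb shRNA cells and by 0.28 (SE 0.12, adjusted p = 0.0487) in GFP shRNA cells. The call in GFP shRNA cells was lost without GFP shRNA replicate 1 (0.0655) or 2 (0.213) of day 2 or replicate 2 (0.0995) or 3 (0.162) of day 6, with median centring (0.0560), with no filter (0.0813), with every probe on its own (0.0522) and with only the arrays compared (0.0697). Klf7 rose in both arms, by 0.81 (SE 0.08, adjusted p = 1.09e-07) in Esrrb shRNA cells and 0.56 (SE 0.08, adjusted p = 7.64e-06) in GFP shRNA cells.

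Klf4 moved down and up again in Esrrb shRNA cells: it fell by 1.04 (SE 0.11, adjusted p = 9.56e-07) between days 2 and 4, for a change called in 19.5% of all genes, and rose by 1.18 (SE 0.11, adjusted p = 1.82e-07) between days 4 and 6 (21.4%). By the same probe, probe 1, Klf4 also fell between days 2 and 4 in GFP shRNA cells, by 0.65 (SE 0.11, adjusted p = 2.61e-04). The difference between the 2 falls, -0.39 (SE 0.15, adjusted p = 0.159), did not pass. The change of Klf4 over days 2 to 6 was 0.13 (SE 0.11, adjusted p = 0.372) in Esrrb shRNA cells and -0.42 (SE 0.11, adjusted p = 0.00298) in GFP shRNA cells. In GFP shRNA cells the Klf4 probes disagreed, since probes 2 and 3 rose by 0.60 (SE 0.13, adjusted p = 8.36e-04) and 0.63 (SE 0.14, adjusted p = 8.09e-04), and the mean of all probes rose by 0.27 (adjusted p = 0.0105). Klf5 rose between days 4 and 6 in both arms, by 0.40 (SE 0.09, adjusted p = 0.00248) in Esrrb shRNA cells and 0.25 (SE 0.09, adjusted p = 0.0337) in GFP shRNA cells. The difference between these rises, 0.16 (SE 0.12, adjusted p = 0.464), did not pass. Over days 2 to 6 Klf5 changed by 0.18 (SE 0.09, adjusted p = 0.109) in Esrrb shRNA cells and by 0.21 (SE 0.09, adjusted p = 0.0550, and 0.0479 with the BeadChip as a block) in GFP shRNA cells. Without GFP shRNA replicate 2 of day 2 the change there passed (0.30, adjusted p = 0.00817).

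Klf2 rose by 0.33 (SE 0.11, adjusted p = 0.0243) in Esrrb shRNA cells, and changed by -0.10 (SE 0.11, adjusted p = 0.482) in GFP shRNA cells. Its rise was lost without Esrrb shRNA replicate 2 of day 2 (adjusted p = 0.152) and without replicate 1 (0.0871) or 2 (0.0716) of day 6. The difference between these changes, 0.43 (SE 0.16, adjusted p = 0.0508), did not pass, by a narrow margin. It passed under 7 of 20 alternative settings, with limma adjusted p-values of 0.0232 to 0.146 over all of them. Klf13 fell by 0.40 (SE 0.12, adjusted p = 0.0151) in Esrrb shRNA cells, and changed by -0.28 (SE 0.12, adjusted p = 0.0705) in GFP shRNA cells. Without Esrrb shRNA replicate 2 of day 6 the first did not pass (0.0775), and without GFP shRNA replicate 1 of day 2 the second passed (-0.46, adjusted p = 0.00114). With median centring the change in Esrrb shRNA cells was -0.26 (adjusted p = 0.259). The change in GFP shRNA cells passed without background correction (-0.23, adjusted p = 0.0496) and with the mean of all probes (-0.35, adjusted p = 0.00265), which takes in the Klf13 probe listed under another name (-0.43, SE 0.13, adjusted p = 0.0112). Klf9 changed by 0.11 (SE 0.08, adjusted p = 0.333) in Esrrb shRNA cells and rose by 0.25 (SE 0.08, adjusted p = 0.0190) in GFP shRNA cells. That rise was lost without GFP shRNA replicate 2 of day 2 (0.0664) and without replicate 1 (0.0619) or 2 (0.0686) of day 6. It was lost as well with the mean of all probes (0.11, adjusted p = 0.371), median centring (0.17, adjusted p = 0.286) and only the arrays compared (0.25, adjusted p = 0.0625), and probe 2 of Klf9 changed by -0.02 (SE 0.15, adjusted p = 0.907) there.

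**Figure D5:**
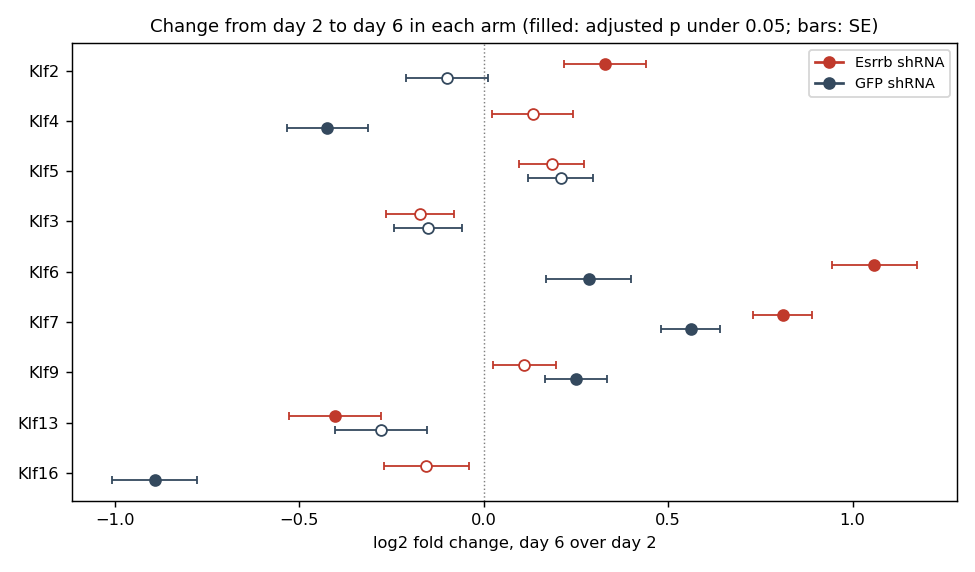
Log2 fold change of day 6 over day 2 (horizontal axis) for the 9 tested members (vertical axis), with Esrrb shRNA in red above GFP shRNA in dark blue. Bars are SE, and filled points had an adjusted p under 0.05 over all genes. Klf6 stood at 1.06 in Esrrb shRNA cells and 0.28 in GFP shRNA cells, and Klf16 at -0.16 and -0.89.

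Of 16 further Sp and Kruppel-like factor genes, which share the zinc finger domain, 13 were tested. At day 2, 1 rose and 1 fell (of all genes, 6.61% rose and 5.55% fell), at day 4, 2 rose and 1 fell (12.3% and 11.1%), and at day 6, 5 rose and 1 fell (19.8% and 21.2%). Sp5, which responds to Wnt signals, rose by 0.83 (SE 0.14, adjusted p = 2.83e-04) at day 2, 1.03 (SE 0.14, adjusted p = 9.47e-06) at day 4 and 4.39 (SE 0.14, adjusted p = 9.68e-15) at day 6. Klf15, known from metabolism and heart muscle, fell on each day, with effects of -0.69 (SE 0.13, adjusted p = 9.21e-04), -1.04 (SE 0.13, adjusted p = 3.77e-06) and -0.99 (SE 0.13, adjusted p = 3.31e-06). Sp6 rose by 0.88 at day 4 (SE 0.14, adjusted p = 5.69e-05) and 1.02 at day 6 (SE 0.14, adjusted p = 4.79e-06), and Klf8 by 0.71 at day 6 (SE 0.11, adjusted p = 4.43e-05). The list's median effect was 0.04, -0.05 and 0.15 at the 3 days. Primitive streak markers moved at day 6 with Sp5: 3 of 4 were detected on all Esrrb shRNA arrays and 2 on all GFP shRNA arrays, Mixl1 on none, and their sum was 512 to 559 in Esrrb shRNA cells and 69 to 84 in GFP shRNA cells. Their part in the Sp5 result was not tested.

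Of genes of the LIF pathway and of the ES cell network to which the naive-state factors belong, 13 were tested. Their order relative to the Kruppel-like factors was not tested. Of these, 0 rose and 4 fell at day 2, 0 rose and 5 fell at day 4, and 1 rose and 6 fell at day 6, with medians of -0.13, -0.19 and -0.12. Of all genes, 5.55%, 11.1% and 21.2% fell and 6.61%, 12.3% and 19.8% rose. Tfcp2l1, a naive-state transcription factor, fell, with effects of -1.16, -1.89 and -1.46 (SE 0.09 each), with adjusted p-values of at most 1.16e-08. Tbx3, another factor of that network, fell, with effects of -1.44, -2.01 and -2.07 (SE 0.11 each) and adjusted p-values of at most 2.60e-08. Socs3, a target and inhibitor of LIF signalling, fell, with effects of -0.33 (SE 0.09, adjusted p = 0.0249) at day 2, -0.38 (SE 0.09, adjusted p = 0.00511) at day 4 and -1.05 (SE 0.09, adjusted p = 1.93e-08) at day 6. The 1 that rose, Dusp6, a phosphatase of the ERK pathway named here after its value was seen, did so at day 6 by 0.57 (SE 0.11, adjusted p = 2.13e-04).

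Genes that Klf2, Klf4 or Klf5 are reported to bind or regulate in mouse ES cells included 9 that were tested. Of these, 1 rose and 5 fell at day 2, 1 rose and 5 fell at day 4, and 2 rose and 5 fell at day 6, with medians of -0.36, -0.37 and -0.42. The list holds Nanog, Pou5f1, Sox2 and Tbx3, which also stand in other lists here, so the lists are not separate sets of genes. It also holds Esrrb itself, the targeted gene. Without Esrrb 4 of 8 fell on each day, beside 5.55%, 11.1% and 21.2% of all genes. Tcl1, a co-activator of Akt, fell, with effects of -0.96, -1.70 and -2.11 (SE 0.10 each) and adjusted p-values of at most 9.09e-07. Lefty1, an inhibitor of Nodal, rose by 1.41, 1.43 and 1.83 (SE 0.10 each), with adjusted p-values of at most 3.83e-09. Sox2 had effects of -0.55 (SE 0.09, adjusted p = 3.63e-04) at day 2 and -0.68 (SE 0.09, adjusted p = 6.52e-06) at day 6.

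Of cofactors and turnover enzymes of Kruppel-like factors 10 were tested. They are set beside the 12.2%, 23.4% and 41% of all genes called at days 2, 4 and 6. At day 2, 0 rose and 2 fell, Ctbp2 (-0.49, SE 0.13, adjusted p = 0.0136), a corepressor, and Btrc (-0.50, SE 0.14, adjusted p = 0.0265), a ubiquitin ligase subunit. At day 4 the corepressor gene Sin3b rose by 0.47 (SE 0.12, adjusted p = 0.00553), and the deacetylase gene Hdac1 fell by 0.29 (SE 0.09, adjusted p = 0.0244). At day 6 Sin3b was up again (0.47, adjusted p = 0.00300), while Sin3a (-0.59, SE 0.10, adjusted p = 1.03e-04) and Btrc (-0.42, SE 0.14, adjusted p = 0.0241) fell.

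The genes whose levels were most like those of each naive-state factor were ranked by Pearson r over the 18 arrays. For Klf5 they were Tfcp2l1 (0.98), Esrrb (0.97), Tbx3 (0.97), Zfp607b (0.96) and Jam2 (0.96). For Klf4 they were Cobl (0.97), Slc52a3 (0.97), Llgl2 (0.97), Zfhx2 (0.97) and Ly6a (0.96). For Klf2 the highest values were lower, with Atp6v0e2 (0.77), Cap1 (0.74), Hoxa7 (0.72), Pcdhgb2 (0.72) and Mpp1 (0.71). After each group's mean was taken off, r ran between 0.02 and 0.39 for the 5 genes of Klf5, between -0.52 and 0.28 for those of Klf4 and between 0.35 and 0.63 for those of Klf2.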

How the data were processed

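Per the file headers, the deposited intensity of a probe is its mean over beads, summarised by the authors with BeadStudio 3.2.6, with no normalization or background subtraction. The deposited bead number and bead spread (unit: other) give 3 to 107 beads per probe, median 37, and the deposited detection score is higher for brighter probes, so 1 minus this score served as the detection p. The probe sequences and the array's annotation are not given in the sources used here. A second deposited table of intensity holds the authors' normalized values, whose method is not stated there and whose row names were not matched to genes; it was used for counts only.

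Background correction used normexp from the detection p with an offset of 16, followed by quantile normalization and log2 (limma 3.58.1, R 4.3.3). Probes were kept where some group had all 3 arrays detected (p under 0.05), 19458 in all, and the probe with the highest mean stood for its gene, 14531 genes. One limma model with 6 groups gave all contrasts, with Benjamini-Hochberg adjustment over all genes at 0.05. It was tested on simulated data, with changes put in at day 4 and noise drawn independently for each array, so without a shared BeadChip. There it recovered 55.2% of log2 changes of 0.5 and 98.7% of log2 changes of 1, with 8 false calls. The p-values measure the spread between arrays called biological replicates, whose number and bead numbers limit the precision.

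Same-numbered arrays share a BeadChip, as the column headers show, which pairs them: their residuals had a median correlation of 0.126 over 45 pairs, 33 of them over 0.1, against -0.066 for 90 pairs of other numbers. Alternatives were median centring, no background correction, no and a stricter filter, the mean of all probes, every probe on its own, the BeadChip as a block, the arrays compared alone, and each array left out. Members and gene lists were chosen with earlier results of these data known. Besides the members and Esrrb, up to 4 called genes of each list and day with the lowest adjusted p could be named, and 5 genes by likeness to each naive-state factor.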

Additional observations from a re-analysis of the deposited data

Results flagged for a closer look

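The knockdown effect, Esrrb shRNA over GFP shRNA, differed between days for 6 results on Kruppel-like factor genes by limma's test of the difference itself. Of 9 members tested, 1 passed for day 4 against day 2, where 4.82% of all genes did. For day 6 against day 4, 2 passed (14.3% of all genes), and for day 6 against day 2, 3 passed (25.2%). The effect on Klf4 was higher at day 6 than at day 4 by 0.95 in log2 (SE 0.15, adjusted p = 3.24e-04) and than at day 2 by 0.56 (SE 0.15, adjusted p = 0.0116), by the probe that stood for the gene. With the mean of all Klf4 probes, the day 6 minus day 2 difference was -0.14 (limma adjusted p = 0.427). The effect on Klf16 was higher at day 6 than at day 4 by 0.70 (SE 0.16, adjusted p = 0.00643) and than at day 2 by 0.74 (SE 0.16, adjusted p = 0.00234). The effect on Klf6 was higher at day 6 than at day 2 by 0.77 (SE 0.16, adjusted p = 0.00165). The effect on Klf7 was higher at day 4 than at day 2 by 0.50 (SE 0.11, adjusted p = 0.0118).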

How the results depend on the processing

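Of 810 values recomputed for 54 results on single Kruppel-like factor genes, 751 kept their call and direction, 56 changed call and 3 changed the direction of a called value. The 3 came with the mean of all probes: Klf9 at day 6 (0.067, adjusted p = 0.635), the day 6 minus day 2 effect on Klf4 (-0.14, adjusted p = 0.427) and Klf4 over days 2 to 6 in GFP shRNA cells (0.27, adjusted p = 0.0105). In these 3 the probes of the gene differ, as given above. The knockdown effects on Klf4, Klf5, Klf6, Klf7 (each day) and Klf16 (day 6) kept their call under all 14 alternatives run. None of these looked at a dimmer probe alone, and probe 2 of Klf5 did not pass at day 6, as given above. The Klf2 call at day 2 was lost under 9 of 14 and that of Klf9 at day 6 under 7 of 14.

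Without background correction 5 members differed between the day 6 and day 2 effects, against 3. Median centring left 2 members changed over time in Esrrb shRNA cells, against 4, and 2 in GFP shRNA cells, against 5. With only the arrays compared it was 3 in GFP shRNA cells, and 864 genes were called at day 2, against 1766. The cause of these shifts was not tested, except that fewer arrays entered the last. At day 4 median centring put the median gene at 0.10, with 2430 higher and 789 lower, against 1793 and 1606. It gave 3386 higher and 1456 lower over time in Esrrb shRNA cells, against 2837 and 2566, and 4181 and 2250 in GFP shRNA cells, against 3765 and 3364.

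Leaving out 1 array gave 4 to 5 members called at day 2, 4 at day 4, 5 to 6 at day 6, 3 to 4 for the effect at day 6 minus day 2, 2 to 5 over time in Esrrb shRNA cells (2 without replicate 2 of day 6) and 3 to 5 in GFP shRNA cells (3 without replicate 2 of day 6). With the BeadChip as a replicate block 5, 4 and 6 members were called at days 2, 4 and 6, 4 over time in Esrrb shRNA cells and 6 in GFP shRNA cells, and 2198 genes at day 2. The block changed no other member's call than those given above. Dim probes near background, such as Klf6 probe 2, give bounds.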
